A study of Mus musculus with 6 samples.

Results

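The acute phase proteins are plasma proteins that the liver releases in greater or smaller amounts during infection and injury, and 10 of their genes were followed here in a mouse hepatoma line. They were taken by gene symbol from the 25078 genes of the deposited tables, and all 10 symbols were found. They are Lbp (lipopolysaccharide-binding protein), the serum amyloid A genes Saa1, Saa2 and Saa3, Hp (haptoglobin), Hpx (hemopexin), the orosomucoid genes Orm1 and Orm2, and the pentraxin genes Crp (C-reactive protein) and Apcs (serum amyloid P component). Only Lbp, Hp and Hpx exceeded an RPKM (read counts scaled by exon length and library size) of 1 in any library, and the other 7 stayed at or below it in all 6 libraries.

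The cells were Hepa1-6, an established hepatoma line from a C57/L mouse. RNA depleted of ribosomal RNA was sequenced from untreated parental cells (wt, 1 library), from cells carrying a lentiviral scramble vector (scr, libraries 25-2 and 50-1) and from cells carrying lentiviral shRNA against midnolin (knockdown, libraries 25-3, 50-2 and 50-5). Both scr and knockdown cells had been selected with puromycin, and stable lines had been grown from single-cell colonies by limiting dilution, so a knockdown library stands for a single clone. By their values, knockdown 50-2 is the clone the study calls sh1 and 25-3 is sh2, and the clone of 50-5 is not given. Separate clones for scr 25-2 and 50-1 are not stated. No cytokine, lipopolysaccharide or other inflammatory agent is named for any library. The comparison of knockdown with scr asked what happened to gene expression when midnolin, a ubiquitin-like domain protein, was lowered.

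In the liver, the acute phase response starts when interleukin 6 and interleukin 1 from activated macrophages reach hepatocytes. Interleukin 6 acts through the shared receptor chain Il6st, the kinase Jak1 and the transcription factor Stat3, and interleukin 1 through Myd88 and NF-kappaB, while C/EBP factors and the glucocorticoid receptor strengthen the response. Lbp hands bacterial lipopolysaccharide to Cd14 and the Tlr4 and Ly96 complex. Haptoglobin captures free hemoglobin and hemopexin captures free heme. Serum amyloid A travels on high density lipoprotein, orosomucoids bind lipophilic compounds, and pentraxins bind exposed surfaces of microbes and dying cells. In mice the serum amyloids are strongly inducible, whereas Crp responds weakly.

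Saa1, Saa2 and Saa3 lie in 1 cluster on chromosome 7, and their shared sequence bears on how far reads can be given to 1 of them. The coding sequences of Saa1 and Saa2 were the same at 348 of 366 bases (95.1%), Saa1 and Saa3 at 267 of 366 (73.0%), and Saa2 and Saa3 at 261 of 366 (71.3%). Bases 61 to 180 of the 3 coding sequences are given from the reference transcripts (GRCm38), 5′ to 3′ on the coding strand, with the 28 positions in capitals at which the 3 genes were not all the same.
Saa1: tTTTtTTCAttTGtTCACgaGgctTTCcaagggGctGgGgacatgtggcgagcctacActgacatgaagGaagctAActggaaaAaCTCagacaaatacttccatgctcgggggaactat
Saa2: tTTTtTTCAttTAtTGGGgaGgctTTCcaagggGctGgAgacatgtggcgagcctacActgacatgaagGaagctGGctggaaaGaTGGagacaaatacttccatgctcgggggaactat
Saa3: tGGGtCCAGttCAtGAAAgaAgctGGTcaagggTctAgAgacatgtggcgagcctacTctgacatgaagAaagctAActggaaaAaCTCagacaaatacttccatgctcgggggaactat
In this stretch Saa1 and Saa2 differed at 11 of 120 bases. Of all 50-base stretches of the annotated transcripts, 14.8% for Saa1, 11.8% for Saa2 and 4.22% for Saa3 also occurred in another gene. Orm1 and Orm2, side by side on chromosome 4, had the same base at 89.9% of coding positions and shared 20.4% and 22.7% of their 50-base stretches with another gene. For Lbp and Crp these shares were 0.366% and 1.15%, and for Hp, Hpx and Apcs they were 0%. Counts of the serum amyloids and orosomucoids are therefore uncertain as to the copy, and those of Lbp, Hp and Hpx hardly or not at all.

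Promoters, taken as 250 bases before to 50 bases after the gene start from RefSeq on GRCm38.p6, were matched for 7 of the 10 genes, which left out Lbp, Hp and Orm1. The letters TTGCNNAA, a short form of the C/EBP motif, were found on either strand in 5 of the 7 promoters and in 10.8% of 32817 promoters of the same length. The letters TTCNNNGAA, the STAT motif, were in 1 of 7, the Apcs promoter, and in 8.29% of all promoters. Of the 5 promoters with a C/EBP match 3 are shown, because 1 belongs to a gene with many reads and the other two to genes with none. They are written 5′ to 3′ on the strand of the gene, with the matching letters in capitals.
Hpx (chr7:105600283-105600342, minus strand): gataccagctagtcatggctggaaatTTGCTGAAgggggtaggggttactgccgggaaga
Saa1 (chr7:46743129-46743188, minus strand): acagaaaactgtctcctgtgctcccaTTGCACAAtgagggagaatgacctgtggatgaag
Saa2 (chr7:46751624-46751683, plus strand): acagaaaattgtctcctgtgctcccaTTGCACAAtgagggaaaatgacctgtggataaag
The match began 200 bases before the gene start in Hpx, 182 in Saa1 and 183 in Saa2. The other two were in Saa3 and Orm2, at 99 and 120 bases before the start. A match describes letters only, and factor binding was not measured.

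Libraries held 25586301 to 33119710 counted reads. Midn, the targeted gene, was at 59.55 and 50.8 RPKM in scr 25-2 and 50-1, at 20.28, 21.82 and 22.1 RPKM in knockdown 25-3, 50-2 and 50-5, and at 60.5 RPKM in wt. Of 10 hepatocyte markers, 8 exceeded an RPKM of 1 and Apoc3 and Serpina1a were at 0 in every library. Their summed RPKM was 4333 in wt, 2361 and 3815 in scr, and 105.0 to 726.8 in knockdown, and Alb held most of it in wt and scr. Not all of the markers went this way, as Apob was at 3.00 and 1.07 RPKM in scr and 52.2, 37.8 and 4.37 RPKM in knockdown. Macrophage markers (2 of 8 over an RPKM of 1, Csf1r and Cd68, with C1qa and C1qb at 0) summed to 4.389 and 4.737 in scr and to between 9.117 and 14.15 in knockdown. Fibroblast and stellate cell markers (2 of 8 over an RPKM of 1, mostly Dcn) summed to 561.9 and 594.5 in scr and to between 410.9 and 575.6 in knockdown. Endothelial markers (1 of 6) summed to under an RPKM of 0.4 in scr and knockdown and to 2.892 in wt, and cholangiocyte markers (3 of 5) to 35.53 and 57.21 in scr and to between 34.43 and 50.54 in knockdown. The part of these markers in the results on the acute phase genes was not tested. In bulk RNA, fewer cells that express a gene and less RNA per cell cannot be told apart.

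**Figure D1:**
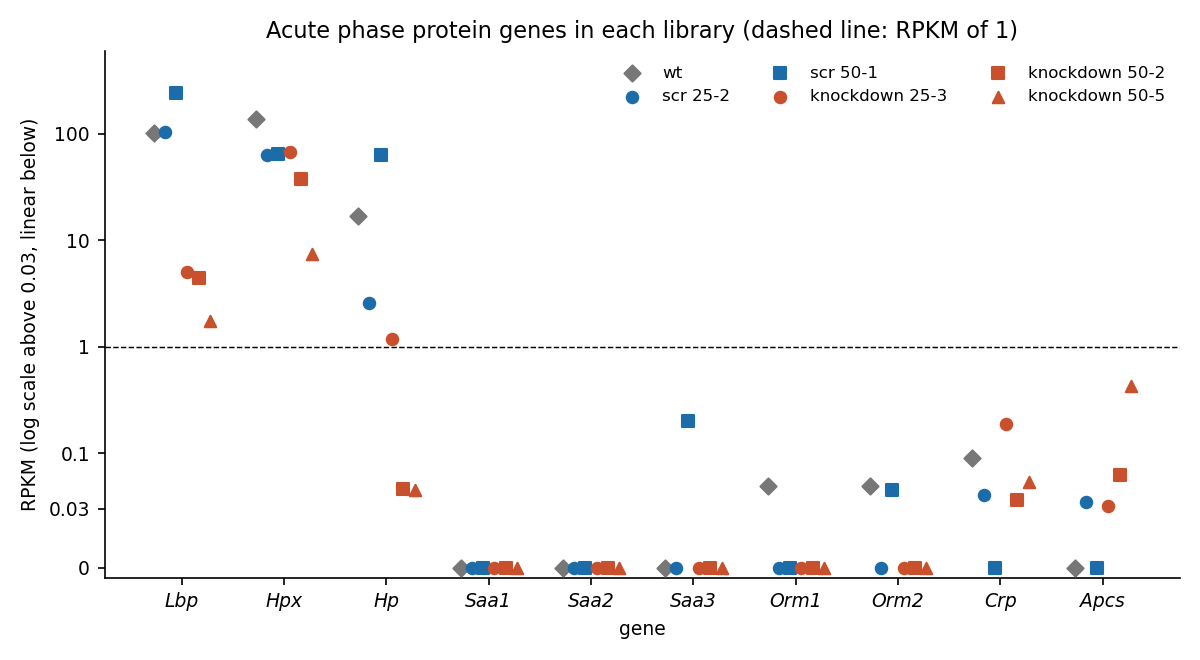
RPKM of the 10 acute phase genes in each of the 6 libraries, on an axis that is logarithmic above 0.03 and linear below it, with 1 point per library. Lbp lay between 103.0 and 240.8 in scr and between 1.72 and 5.05 in knockdown, Hpx spread from 7.43 to 135.9 with overlapping groups, Hp spread widely within each group, and the other 7 genes lay below the dashed line at an RPKM of 1.

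Lbp, whose product presents lipopolysaccharide to its receptor, was lower in knockdown than in scr. The gene spans chr2:158306493-158332852 on the plus strand. Its RPKM was 103.0 in scr 25-2 and 240.8 in scr 50-1, and 5.05, 4.42 and 1.72 in knockdown 25-3, 50-2 and 50-5, from 7657 and 17319 counts against 403, 361 and 144. All 3 knockdown libraries were below both scr libraries, and the lower scr library stood 20.4 times above the highest knockdown library. The mean was 172 ± 97.4 RPKM in scr (SD, n = 2) and 4.74 ± 0.444 RPKM in knockdown 25-3 and 50-2 (SD, n = 2). The log2 fold change of these 4 libraries was -5.19 (SE 0.505) with an adjusted p of 0.0294 by the quasi-likelihood test of edgeR, and it was -5.54 (SE 0.591, adjusted p = 0.00893) with knockdown 50-5 included. Among all 25078 genes, Lbp ranked 436 and 136 by RPKM in scr and 7944, 8402 and 10086 in knockdown. In wt it was at 100.4 RPKM, close to scr 25-2, and ranked 549. The call was lost when knockdown 25-3 was left out (log2 fold change -5.29, adjusted p = 0.285) or 50-2 was left out (-5.10, adjusted p = 0.298), settings in which edgeR called 0 of all genes, with 1153 and 1058 genes at an unadjusted p under 0.05. It was also lost with knockdown 50-5 in place of 50-2 (-5.67, edgeR adjusted p = 0.0552), where 131 of all genes were called. The 4th loss came with a block for the 25 or 50 of the labels in the 4 libraries (-5.07, edgeR adjusted p = 0.0846), where 0 of all genes were called.

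Hp, the hemoglobin scavenger, varied 24.4-fold within scr and 26.2-fold within knockdown, and its difference between them was not called. It lies at chr8:109575128-109579172 on the minus strand. Its RPKM was 2.58 in scr 25-2 and 62.9 in scr 50-1, and 1.18, 0.0460 and 0.0449 in knockdown 25-3, 50-2 and 50-5. The groups did not overlap, since the lower scr library was 2.19 times the highest knockdown library. Counts were 102 and 2409 in scr against 50, 2 and 2 in knockdown, and 2 counts have an exact 95% Poisson interval of 0.242 to 7.22, which covers counting error only. The log2 fold change was -5.75 (SE 2.03) with an adjusted p of 0.184 by edgeR, against an unadjusted p of 0.0402, and with knockdown 50-5 it was -6.28 (SE 1.73, adjusted p = 0.0718). In wt Hp was at 16.8 RPKM, between the scr libraries. Left without scr 25-2, the difference was called (-6.69, adjusted p = 0.00480), and without scr 50-1 it was -2.10 (adjusted p = 0.239).

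Hpx, the heme scavenger, did not differ between knockdown and scr beyond the spread of the knockdown libraries. It lies at chr7:105591611-105600116 on the minus strand. Its RPKM was 62.8 in scr 25-2 and 64.6 in scr 50-1, and 67.7, 37.7 and 7.43 in knockdown 25-3, 50-2 and 50-5. The scr libraries were within 1.03 times of each other, whereas the highest knockdown library was 9.11 times the lowest. Knockdown 25-3 lay above both scr libraries and the other two below them, so the groups overlapped. The log2 fold change was -0.289 (SE 0.310, edgeR adjusted p = 0.599) for the 4 libraries and -0.777 (SE 0.779, adjusted p = 0.535) with knockdown 50-5. In wt Hpx was at 135.9 RPKM, 2.13 times the scr mean of 63.7 ± 1.29 (SD, n = 2), and wt had no replicate. Without knockdown 50-2 the log2 fold change was 0.0761 (adjusted p = 0.948).

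The serum amyloid genes were silent at this depth. Saa1 and Saa2 had 0 counts in all 6 libraries, and 3 counts, taken as the limit that a count of 0 allows, would be between 0.148 and 0.189 RPKM for either (the exact 95% Poisson interval of a count of 0 ends slightly higher, at 3.69 counts). Saa3 had 3 counts in scr 50-1 (0.198 RPKM) and 0 in the other 5 libraries. How reads that match several genes were counted is not given in the sources used here, so these counts of 0 speak for the stretches that each gene does not share.

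The orosomucoid and pentraxin genes were at or near 0. Orm1 had 1 count in wt and 0 elsewhere, and Orm2 had 1 count in wt and 1 in scr 50-1. Crp had 4 counts in wt, 2 and 0 in scr, and 10, 2 and 3 in knockdown 25-3, 50-2 and 50-5. Its highest level was 0.186 RPKM in knockdown 25-3, where the exact 95% Poisson interval of the 10 counts ran from 4.80 to 18.4. Apcs had 0 counts in wt, 1 and 0 in scr, and 1, 2 and 14 in knockdown, with 0.430 RPKM in knockdown 50-5 and at most 0.0629 RPKM elsewhere. None of these 7 genes passed the filter on low values of the 4-library test. Without that filter Saa3, Orm2, Crp and Apcs entered the test, and 0 of the 4 were called or had an unadjusted p under 0.05 (edgeR adjusted p between 0.448 and 0.644).

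Added over the 10 genes, the RPKM was 253.2 in wt, 168.5 and 368.5 in scr, and 74.1, 42.3 and 9.68 in knockdown 25-3, 50-2 and 50-5. Every knockdown library was below every other library, and both scr libraries differed from each other by more than the highest knockdown sum. The order of the genes changed as well. Lbp led in both scr libraries, with 61.2% and 65.3% of the sum, and held 6.82%, 10.5% and 17.8% in knockdown. Hpx led in wt with 53.7% and in knockdown with 91.3%, 89.2% and 76.7%, while it held 37.3% and 17.5% in scr. The ratio of Lbp to Hpx RPKM was 1.64 and 3.73 in scr, 0.739 in wt and 0.0747, 0.117 and 0.232 in knockdown. Hp held 6.62% in wt, 1.53% and 17.1% in scr and at most 1.59% in knockdown. In knockdown 50-5 the 7 low genes together held 4.99%, more than the 0.464% of Hp, and most of that was Apcs. In the other libraries these 7 held at most 0.295%.

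**Figure D2:**
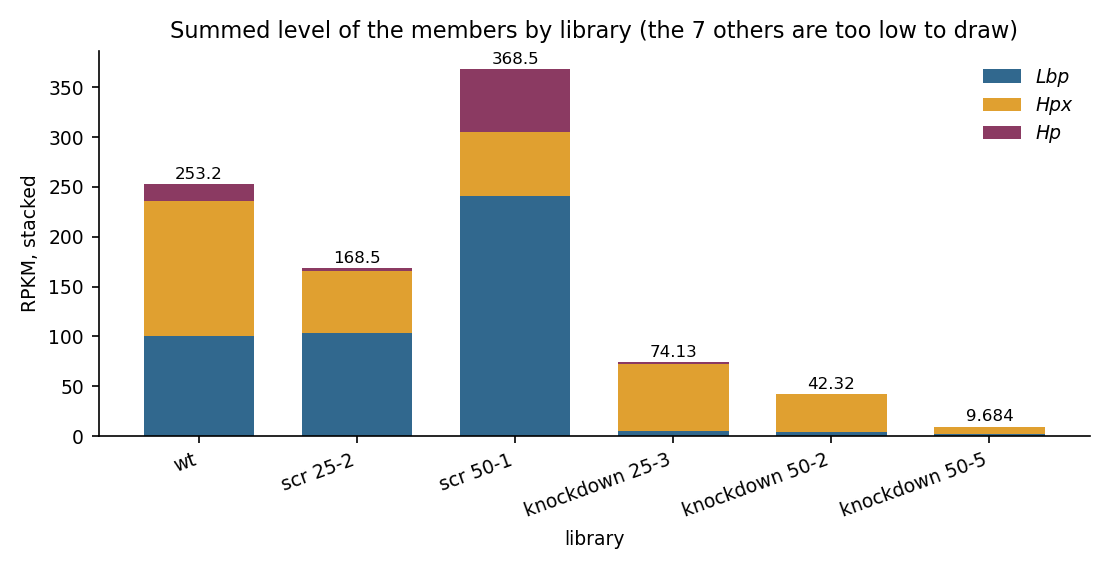
Stacked RPKM of Lbp, Hpx and Hp in each library, with the sum over all 10 acute phase genes printed above each bar. The sum was 168.5 and 368.5 in scr and 74.1, 42.3 and 9.68 in knockdown, and Hpx made up most of each knockdown bar.

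Of the 3 genes that could be tested, 1 was called lower in knockdown and 0 higher, at an adjusted p under 0.05 and a fold change of at least 1.5. Among all genes tested in the 4 libraries, 3.01% were called, and 1.20% were called lower. With knockdown 50-5 included the same count was 1 of 3, and 10.6% of all genes were called, with 5.23% of all genes called lower. Both Lbp and Hp had all 3 knockdown libraries below both scr libraries, which 24.5% of all genes tested also had. Lbp had the 44th lowest log2 fold change of 11482 genes and Hp the 32nd, against a median over all genes of -0.0226. Of the genes within 5 Mb, the median log2 fold change was -0.0896 around Lbp (81 genes), -0.277 around Hp (109 genes) and 0.0337 around Hpx (64 genes), with 1 called gene in each set of neighbours.

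**Figure D3:**
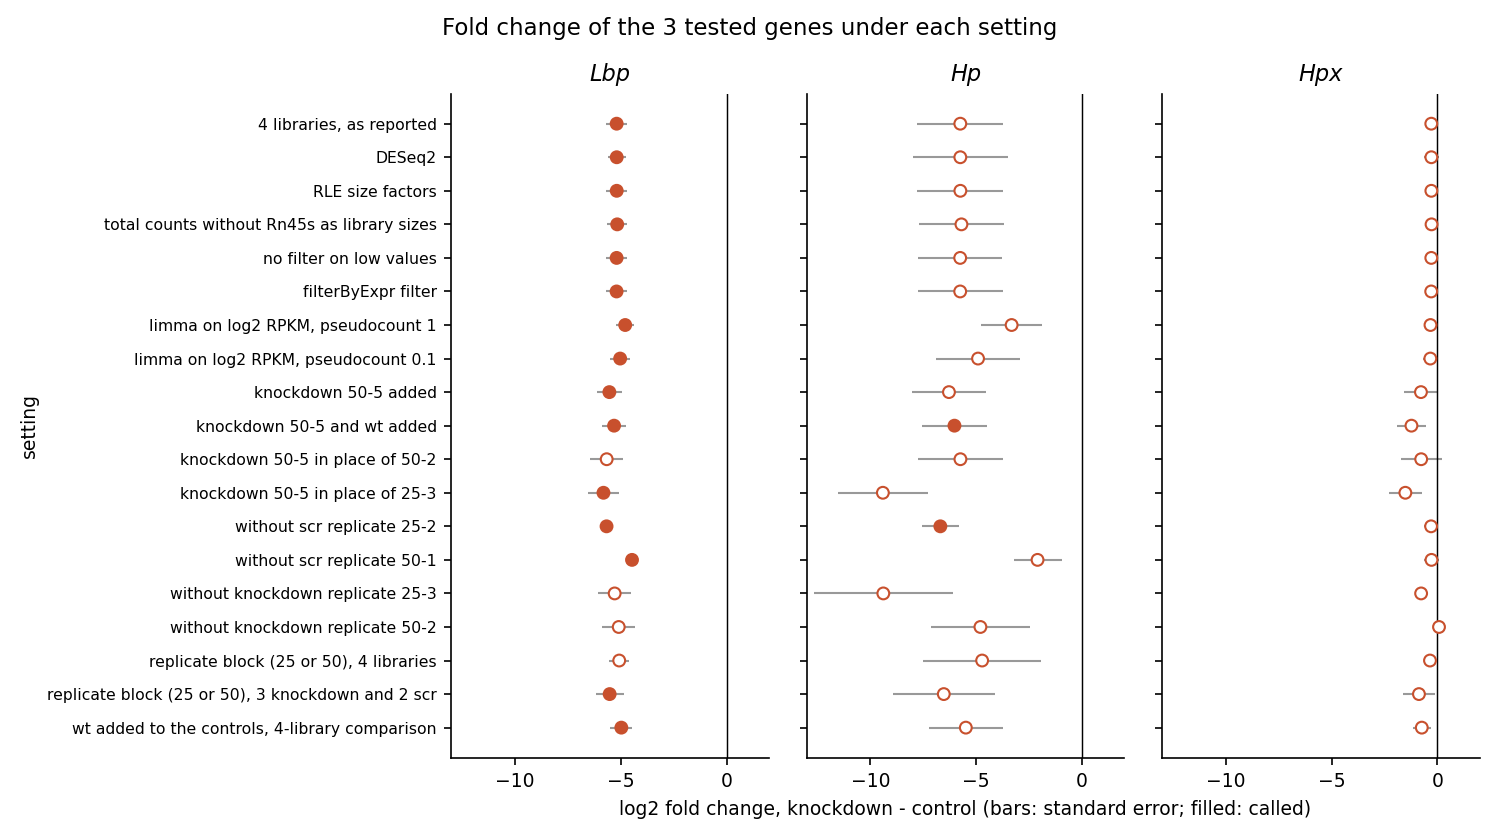
Log2 fold change of Lbp, Hp and Hpx between knockdown and control under each setting, with the standard error as a bar and a filled point where the gene was called. Lbp stayed between -5.82 and -4.47, Hp ranged from -9.40 to -2.10, and Hpx from -1.51 to 0.0761.

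Lists of genes around these 10 were examined for the same comparison, 82 genes in 4 lists, of which 52 had enough reads to be tested. In all, 2 were called higher and 4 lower in knockdown, and 36 of the 52 had a log2 fold change below 0, beside 3.01% of all tested genes called, 1.20% called lower and 51.7% below 0. With knockdown 50-5 included, 5 were called higher and 10 lower, beside 10.6% of all tested genes called. Alb, Apoa1, Fgb, Serpina1a and Hnf4a stand in these lists and also among the hepatocyte markers, whose sum was lower in every knockdown library than in scr, and the part of that sum in the list results was not tested.

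Of 31 other positive acute phase genes, 15 were tested, 2 were called higher, 1 was called lower and 11 were below 0, with a median log2 fold change of -2.82, or -2.78 with genes at or near 0 counts in a group set to 3 counts. With knockdown 50-5 in place of 50-2, 1 of the 15 was called, beside 1.14% of all genes tested. With DESeq2 8 were called, beside 15.7% of all genes. Fgb, which encodes a chain of the clot protein fibrinogen, was not called. It was at 131.3 and 460.1 RPKM in scr and 46.7, 34.8 and 7.64 RPKM in knockdown (log2 fold change -2.87, SE 0.652, edgeR adjusted p = 0.0965, and 0.0600 with knockdown 50-5). Cp, the copper carrier ceruloplasmin, was at 107.9 and 48.5 RPKM in scr and 9.28, 4.74 and 8.83 RPKM in knockdown, not called in the 4 libraries (adjusted p = 0.0574) and called with knockdown 50-5 (log2 fold change -3.37, edgeR adjusted p = 0.0139). Steap4, a metalloreductase, fell from 138 and 122 counts in scr to 1, 1 and 0 in knockdown (edgeR adjusted p = 0.0225). C3, the central complement protein, overlapped between groups, at 16.7 and 218.8 RPKM in scr and 11.3 to 22.3 RPKM in knockdown. Il1rn, the interleukin 1 receptor antagonist, rose from 0.429 and 0.235 RPKM in scr to 7.28, 14.0 and 4.42 RPKM in knockdown (log2 fold change 4.97, SE 0.533, edgeR adjusted p = 0.0334). Serpina1b, an alpha-1 antitrypsin gene with close paralogs, had 0 counts in both scr libraries and 105, 61 and 20 in knockdown, at least 25.2-fold higher in knockdown 25-3 and 50-2 than 3 counts per library would give (edgeR adjusted p = 0.0456). In wt Serpina1b had 13 counts (0.350 RPKM), near the 0.424 RPKM of knockdown 50-5. The metallothionein gene Mt1 was at 51.8 and 65.5 RPKM in scr and 45.6, 69.6 and 24.3 RPKM in knockdown, overlapping, and Mt2 overlapped too, at 21.5 and 45.7 RPKM in scr and 8.59 to 28.8 RPKM in knockdown. As with Saa1 and Saa2, Orm3, Hamp2, Serpina3m and Serpina1a had 0 counts in every library, and 16 of the 31 were not tested.

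Negative acute phase genes encode plasma proteins that decline in the response. Of 10, 5 were tested, 0 were called higher and 1 was called lower, with 4 below 0 and a median of -2.43. Ttr, the thyroxine and retinol carrier transthyretin, fell from 119.5 and 131.2 RPKM in scr to 2.59, 0.887 and 0.223 RPKM in knockdown (log2 fold change -6.18, SE 0.582, edgeR adjusted p = 0.0294), and 0 genes of the list were called with knockdown 50-5 in place of 50-2. Alb, albumin, was at 1877 and 2804 RPKM in scr and 335.8, 62.7 and 20.9 RPKM in knockdown, without a call (log2 fold change -3.57, SE 0.882, edgeR adjusted p = 0.107). Rbp4, the retinol carrier of plasma, was at 320.4 and 335.4 RPKM in scr and 414.6, 375.1 and 285.5 RPKM in knockdown. Trf, the iron carrier transferrin, overlapped between groups, at 578.1 and 197.7 RPKM in scr and between 119.7 and 294.9 RPKM in knockdown. Fetub, fetuin B, was at 15.1 and 33.4 RPKM in scr and 4.01, 5.08 and 2.52 RPKM in knockdown, not called in the 4 libraries (adjusted p = 0.0678) and called with knockdown 50-5 (log2 fold change -2.66, edgeR adjusted p = 0.0206). Apoa1, the main protein of high density lipoprotein, was at most 0.545 RPKM outside wt and was not tested. The medians of both the positive and the negative acute phase genes lay below that of all genes.

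Of 29 genes for the inducing cytokines, their receptors and the transcription factors, 25 were tested, 0 were called higher and 1 was called lower, with 16 below 0 and a median of -0.239. The cytokines Il6, Il1b and Tnf reached at most 0.0265 RPKM in any library. Lifr, the leukemia inhibitory factor receptor, fell from 78.8 and 111.0 RPKM in scr to 28.6, 29.8 and 23.5 RPKM in knockdown (log2 fold change -1.72, SE 0.216, edgeR adjusted p = 0.0413). This call did not hold in every setting. The count of called genes in the list was 0 with no filter on low values, where 1.20% of all genes were called. It was also 0 with limma on log2(RPKM + 0.1) (2.28% of all genes) and with knockdown 50-5 in place of 50-2 (1.14%). With DESeq2 4 of the 25 were called, beside 15.7% of all genes tested. The count rose when either scr library was left out and fell when either knockdown library was, as did the share of all genes called. Il6ra, the interleukin 6 receptor, was at 7.17 and 10.2 RPKM in scr and 3.78, 4.14 and 6.76 RPKM in knockdown, not called (edgeR adjusted p = 0.0870). Jak1 was at 12.2 and 13.8 RPKM in scr and 29.7, 25.5 and 34.8 RPKM in knockdown, also not called in the 4 libraries (adjusted p = 0.0542) and called with knockdown 50-5 (log2 fold change 1.20, edgeR adjusted p = 0.0186). Stat3 was at 27.3 and 35.7 RPKM in scr and between 18.1 and 23.5 RPKM in knockdown (edgeR adjusted p = 0.191). Among the C/EBP genes, Cebpb overlapped between groups, while Cebpa was at 9.82 and 5.07 RPKM in scr and 4.63, 4.19 and 1.36 RPKM in knockdown (edgeR adjusted p = 0.278). Hnf4a, a hepatocyte transcription factor, was at 33.9 and 11.04 RPKM in scr and 65.5, 65.4 and 29.6 RPKM in knockdown, and overlapped between groups. Jak2 was not called, at 85.7 and 68.8 RPKM in scr and 64.3 to 79.7 RPKM in knockdown. The tumor necrosis factor receptor Tnfrsf1a was not called either, at 41.5 and 72.1 RPKM in scr and 35.2 to 42.9 RPKM in knockdown. Nr3c1, the glucocorticoid receptor, was at 96.7 and 62.2 RPKM in scr and 50.3, 43.3 and 50.4 RPKM in knockdown (edgeR adjusted p = 0.174). Nfkbia, the inhibitor of NF-kappaB, was at 24.6 and 33.6 RPKM in scr and 36.4, 47.1 and 62.8 RPKM in knockdown (edgeR adjusted p = 0.260).

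Of 12 receptors and partners of the 10 proteins, 7 were tested, 0 were called higher and 1 was called lower, with 5 below 0 and a median of -0.808. Lrp1, which takes up the heme and hemopexin complex, fell from 36.4 and 41.8 RPKM in scr to 6.94, 7.06 and 6.67 RPKM in knockdown (log2 fold change -2.50, SE 0.155, edgeR adjusted p = 0.0198). Cd14, which receives lipopolysaccharide from Lbp, was at 36.3 and 64.0 RPKM in scr and 12.3, 14.4 and 15.4 RPKM in knockdown, without a call in the 4 libraries (log2 fold change -1.93, SE 0.317, adjusted p = 0.0595) and with one when knockdown 50-5 was included (-1.85, edgeR adjusted p = 0.0157). Tlr4 was at 25.4 and 24.99 RPKM in scr and 12.1, 17.0 and 12.7 RPKM in knockdown (edgeR adjusted p = 0.115, and 0.0381 with knockdown 50-5). Ly96 was at 15.4 and 18.2 RPKM in scr and between 14.9 and 16.0 RPKM in knockdown (log2 fold change -0.0876, edgeR adjusted p = 0.842). Cd163, the haptoglobin and hemoglobin receptor of macrophages, was at most 0.00756 RPKM. Hmox1, the enzyme that degrades heme, was at 13.1 and 24.5 RPKM in scr and 24.5, 43.6 and 28.9 RPKM in knockdown (edgeR adjusted p = 0.292). Scarb1, a receptor for high density lipoprotein and serum amyloid A, was at 11.4 and 17.1 RPKM in scr and 26.8, 30.4 and 35.8 RPKM in knockdown, not called in the 4 libraries (adjusted p = 0.105) and called with knockdown 50-5 (log2 fold change 1.11, edgeR adjusted p = 0.0394).

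**Figure D4:**
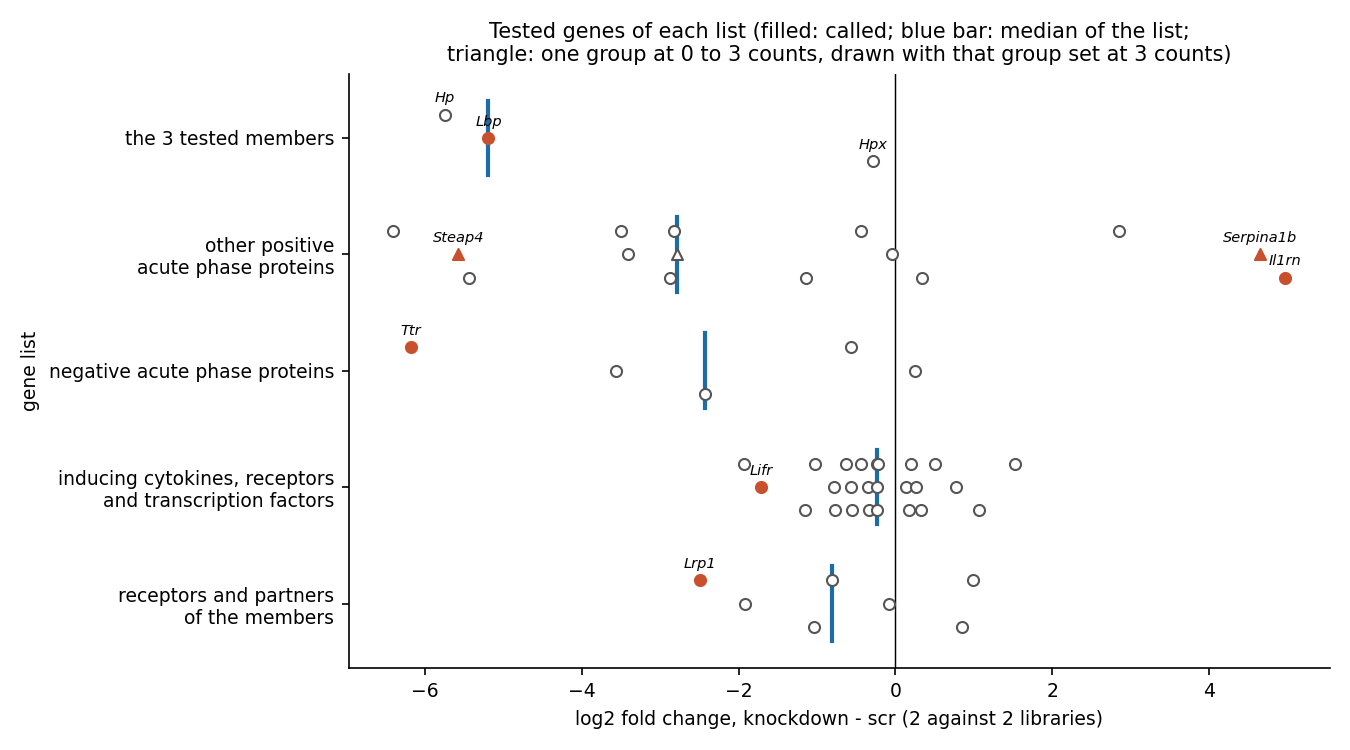
Log2 fold change between knockdown and scr (2 against 2 libraries) of the 3 tested acute phase genes and of the tested genes of 4 surrounding lists, with filled symbols for called genes, a blue bar at each median and triangles where a group with 0 to 3 counts was set to 3 counts. Medians were -2.78 for other positive acute phase genes, -2.43 for negative ones, -0.239 for inducing genes and -0.808 for receptors and partners, against -0.0226 over all genes.

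Across the 6 libraries, the pattern of log2 RPKM was compared with that of 11647 genes by Pearson correlation, given as a description because the genes share the same 6 libraries and their group differences. The genes most like Lbp were Pid1 (r = 0.998) and Ephb4 (r = 0.997). Pid1 was at 83.0 and 145.8 RPKM in scr and 13.1, 14.2 and 6.84 RPKM in knockdown. Ephb4 was at 68.4 and 72.1 RPKM in scr and 52.7, 51.1 and 47.9 RPKM in knockdown, as r does not measure the size of a change. In all, 820 genes had an r over 0.9 with Lbp. Those most like Hp were Rpa2 (r = 0.991) and Stag2 (r = 0.990), with 448 genes over 0.9. Rpa2 was at 24.1 and 31.5 RPKM in scr and 21.5, 17.4 and 16.0 RPKM in knockdown. Those most like Hpx were Nek1 (r = 0.984) and Thop1 (r = 0.983), with 92 genes over 0.9. Among the acute phase genes themselves, r was 0.915 for Lbp and Hp, 0.710 for Lbp and Hpx and 0.713 for Hp and Hpx.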

How the data were processed

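RNA was sequenced in single-read mode. Per the labels and the paper's methods, the authors aligned to mm10 (TopHat2) and used HTSeq to obtain counts per RefSeq gene. HTSeq was 0.6.1p1 in the submitters' processing notes and another version in the paper's methods. The authors deposited these counts raw. Their deposited RPKM values rest on library sizes that edgeR had scaled by TMM. The strand setting is not given in the sources used here. Groups came from the labels, and 0 of the library columns were left unmatched.

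The comparison used the 2 knockdown and 2 scr libraries whose RPKM equals, within 0.01%, the values of the authors' gene table for all 1325 of its genes that matched by name. Counts of the 11482 genes above an RPKM of 1 in any of the 4 libraries were tested in edgeR 4.0.16 under R 4.3.3 (quasi-likelihood, TMM, Benjamini-Hochberg adjustment), and genes were called at an adjusted p under 0.05 and a fold change of at least 1.5. This test called 346 genes, fewer than the 1325 of the authors at the same cutoffs, and the paper does not name its test. The standard error is the absolute log2 fold change over the root of F. Knockdown 50-5 and wt entered alternatives only. Depth ran from 25586301 to 33119710 counts, and the common biological coefficient of variation was 0.288. The compared knockdown libraries are separate clones, whereas separate clones or cultures are not stated for the scr libraries, whose spread may be technical, and p-values measure the spread between these libraries. Intervals and limits of 3 counts cover counting error only.

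The 10 genes and all lists were chosen with earlier results of these data known. Named genes were the 10, the called genes of each list with the 6 of highest mean RPKM, and the 2 genes most correlated with Lbp, Hp and Hpx on log2(RPKM + 0.1). Il6, Il1b, Tnf, Il6ra, Jak1, Stat3, Cebpa, Cebpb, Cd163, Apob and the list genes at 0 counts were added for their role after their values were seen. A gene that this rule names is not reported here. Tests were checked on simulated counts. Alternatives were DESeq2 1.42.0, other scalings and filters, limma 3.58.1 on log2(RPKM + 1) and log2(RPKM + 0.1), other sets of libraries, a block for the 25 or 50 of the labels and each library left out.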

Additional observations from a re-analysis of the deposited data

Results flagged for a closer look

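Values in libraries outside the comparison of 4 were higher than in both scr libraries and came from more than 3 counts for 3 genes. Hpx was at 135.9 RPKM in wt, against 62.8 and 64.6 RPKM in scr. Crp was at 0.0904 RPKM in wt, from 4 counts with an exact 95% Poisson interval of 1.09 to 10.2, against 2 and 0 counts in scr. Apcs was at 0.430 RPKM in knockdown 50-5, from 14 counts with an interval of 7.65 to 23.5, against 1 and 0 counts in scr and 1 and 2 in the other knockdown libraries. None of these libraries has a replicate of its own, and the difference was not tested.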

How the results depend on the processing

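Lbp was lower in knockdown under all 18 alternatives (log2 fold change -5.82 to -4.47, adjusted p 1.101e-30 to 0.298), and its call was lost in 4 of them. Hp was lower in all 18 (-9.40 to -2.10) and called in 2. Hpx was called in 0 of 18, with an adjusted p between 0.270 and 0.948, and lay between -0.769 and 0.0761 when each library was left out, above 0 without knockdown 50-2. The count of the 10 genes called, 1 in the 4 libraries, was 2 with knockdown 50-5 and wt added, 0 with knockdown 50-5 in place of 50-2 (Lbp adjusted p = 0.0552 by edgeR) and between 0 and 2 when each library was left out in turn. The count over the 4 lists, 6 in the 4 libraries, was 19 with DESeq2, 15 with knockdown 50-5 added, 18 with knockdown 50-5 and wt added, 2 with knockdown 50-5 in place of 50-2, 13 with wt added to the controls, an alternative chosen after seeing the data, and between 0 and 31 when each library was left out in turn, 31 without scr 25-2 and 23 without scr 50-1. The share of all genes called moved too, from 3.01% to 25.5% without scr 25-2, 18.4% without scr 50-1, 15.7% with DESeq2, 10.6% with knockdown 50-5 added, 14.1% with wt added as well, 6.77% with wt added to the controls alone and 1.14% with 50-5 in place of 50-2. Where a library was left out, the lone library of its group was assumed to vary like the others.

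The numbers 25 and 50 in the labels are not explained, and libraries sharing one did not deviate together (correlation of deviations -0.0375), so they were not treated as pairs. With a block for them, edgeR called 0 of the 10 genes (Lbp adjusted p = 0.0846), 0 of the list genes and 0 of all genes in the 4 libraries, with 2495 genes at an unadjusted p under 0.05, and 1 and 11 with knockdown 50-5 included, where 6.97% of all genes were called. Saa1, Saa2, Saa3, Orm1 and Orm2 had at most 3 counts in a library, and depth limits what can be said of them.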
